A study of Mus musculus with 3 samples.

Results

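The 9 genes described here encode ETS transcription factors other than the best known ETS genes of red cell leukemia: Ets1, Ets2, Erg, Etv6, Elf1, Elf2, Gabpa, Spib and Spic. They were picked by name and family, as 9 of 21851 protein-coding genes, with earlier results of these data known, and no threshold on a measured value was used. DNase-seq was used to map open chromatin in MEL cells, an immortalized mouse erythroleukemia line that resembles red cell precursors. No treatment, genotype or other condition is given in the labels, and age, sex and developmental stage are recorded as unknown or not collected. The 3 libraries form 2 biological replicates, of which the first has 2 libraries and the second 1, and both derive from 1 line. Each biological replicate has 1 set of called peaks, named list 1 and list 2 here, so there is no spread within a replicate and no test between samples.

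ETS factors share a winged helix-turn-helix DNA-binding domain that recognises a GGAA core, and they differ in the bases they prefer beside it and in the partners they bind. In the blood system Erg, Ets1 and Etv6 act in stem cells, lymphocytes and platelet precursors, Elf1, Elf2 and Gabpa are broadly expressed, and Spib and Spic are the relatives of PU.1 in B cells and macrophages. MEL cells arose in a Friend virus leukemia, in which insertion near the PU.1 gene drives an ETS factor at high level.

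DNase I cuts accessible DNA, and each called peak of 150 bp carries a deposited score. Scores run from 1 to 150 and are compressed at the top of list 1, and what they count is not given in the sources used here. List 1 held 281600 peaks and list 2 held 89046, and their median scores were 73 and 32. The depth of the libraries is unknown, and at 122 of 122 overlapping sites of the 9 loci the list 1 score was the higher. Scores are therefore ranked within a list and not compared between lists. Of 8 red cell marker genes, 7 had a promoter peak in list 1 and 6 in list 2, against 0 of 4 stem and progenitor markers in both, 1 and 0 of 4 T cell markers, 2 and 1 of 5 B cell markers, 2 and 1 of 4 endothelial markers, and 3 and 2 of 4 macrophage markers. Of all protein-coding genes, 58.3% had one in list 1 and 49.4% in list 2. Slc4a1, which encodes the red cell anion exchanger, had no promoter peak in either list.

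The sequences below belong to the highest list 2 promoter peak of each gene and are shown because the promoters differ in their matches to ETS motifs. Bases come from the GRCm38 (mm10) reference and run 5′ to 3′ on the strand of the gene. They leave out annotated untranslated bases, apart from the first bases of the Gabpa stretch. Capitals mark matches, on either strand, to 6 motifs. A match is to exact letters and is not a shown binding site, and a GGAA core outside these letters is not marked. The full ETS motif was searched as CCGGAAG. The motif preferred by PU.1 was searched as GAGGAAGT, and a shorter ETS core, which lies within the PU.1 motif, as AGGAAG. The motif of the GATA factors of red cells was searched as AGATAA. The motif of RUNX factors, which bind beside ETS factors, was searched as TGTGGT. The E-box of helix-loop-helix factors such as Tal1 was searched as CAGNTG. For Gabpa only the bases around its ETS match are shown, and those before chr16:84835024 are annotated as untranslated. The Ets2 peak lies in the untranslated part of exon 1 and is not shown.
Gabpa, chr16:84835020-84835048, plus strand: gagggtaagtgCTTCCGGgtccctcagct
Ets1, chr9:32695896-32696021, plus strand: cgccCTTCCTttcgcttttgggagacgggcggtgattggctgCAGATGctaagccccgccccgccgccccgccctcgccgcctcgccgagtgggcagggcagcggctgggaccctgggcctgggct
Etv6, chr6:134035556-134035699, plus strand: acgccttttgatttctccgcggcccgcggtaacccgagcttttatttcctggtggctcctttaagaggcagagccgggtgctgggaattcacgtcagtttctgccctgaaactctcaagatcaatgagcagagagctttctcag
Elf1 internal start, chr14:79515576-79515673, plus strand: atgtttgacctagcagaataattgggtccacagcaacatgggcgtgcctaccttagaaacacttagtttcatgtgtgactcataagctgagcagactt
Elf2, chr3:51341116-51341265, minus strand: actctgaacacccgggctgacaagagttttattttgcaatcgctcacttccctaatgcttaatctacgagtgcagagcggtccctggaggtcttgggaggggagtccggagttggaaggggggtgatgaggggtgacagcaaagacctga
Spic, chr10:88683024-88683145, minus strand: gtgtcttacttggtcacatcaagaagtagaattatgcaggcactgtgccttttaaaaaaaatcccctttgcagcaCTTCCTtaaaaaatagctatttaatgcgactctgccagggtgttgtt
Among these stretches the full ETS motif occurs in Gabpa alone. Ets1 and Spic hold the shorter ETS core, Ets1 also holds an E-box, and the stretches of Etv6, Elf1 and Elf2 hold no match to any of the 6 motifs. In bases not shown, the Gabpa peak also holds a PU.1 match and the shorter ETS core, and the Ets2 peak holds the shorter ETS core.

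A promoter peak has its centre no more than 1000 bp from a protein-coding start. One was present for 7 of the 9 genes in each list. Among all protein-coding genes the share was 58.3% in list 1 and 49.4% in list 2. The 7 genes were Ets1, Ets2, Etv6, Elf1, Elf2, Gabpa and Spic in both lists, and Erg and Spib had none in either. Among genes with a promoter peak the median of the highest promoter score was 139 in list 1 and 63 in list 2, and 5 of the 7 genes lay above it in the first and 2 of 7 in the second.

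**Figure D1:**
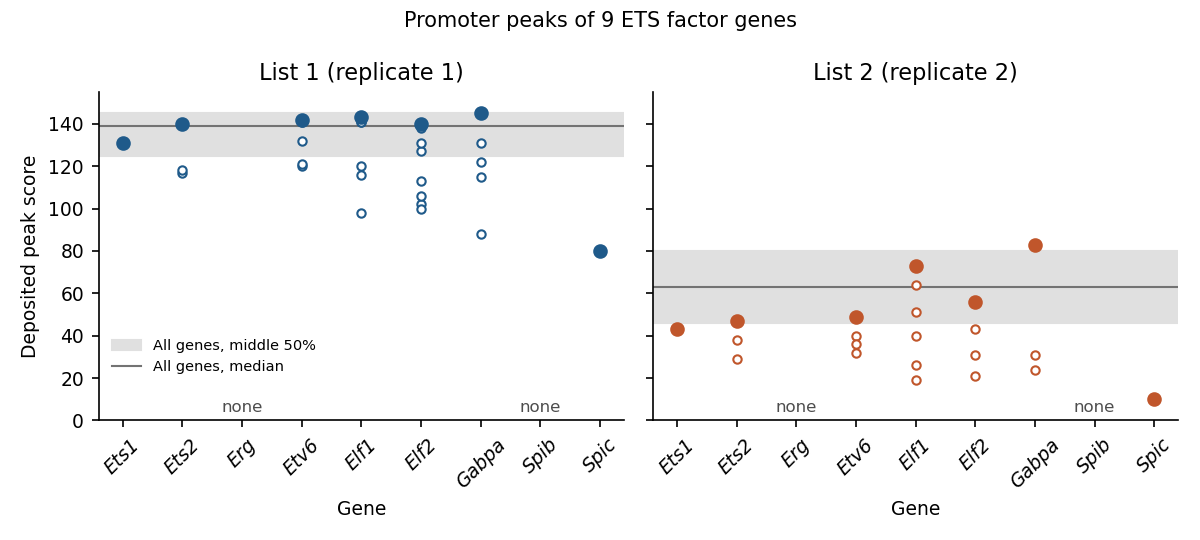
Deposited score (vertical axis, no unit) of every promoter peak of the 9 ETS factor genes in each list; filled points are the highest peak of a gene, open points its other promoter peaks, the grey band the middle 50% of highest promoter scores over all genes and the line their median. Gabpa reaches 145 and 83, Spic 80 and 10, and Erg and Spib have no promoter peak.

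Gabpa encodes the DNA-binding subunit of GABP, the only ETS factor that works as an obligate complex with a separate activation subunit. The gene (ENSMUSG00000008976.16, chromosome 16, 84834925 to 84863779, plus strand) had the highest promoter scores of the 9, 145 in list 1 and 83 in list 2. These stand at percentiles 76.3 and 79.2 among genes with a promoter peak. The peak has the same position in both lists, chr16:84834916-84835065, and is centred 66 bp after one Gabpa start and 133 bp before the other. Its ETS match at chr16:84835031-84835037 lies 90 bp before the second start. The peak of 145 and 83 also lies 512 bp from a start of Atp5j, so it falls within the promoter window of both genes. Atp5j encodes a subunit of ATP synthase and runs in the opposite direction. Further promoter peaks of 31 and 24 in list 2 are also shared with Atp5j. The first is 187 bp from a Gabpa start and 192 bp from an Atp5j start, and the second 527 bp and 26 bp, so neither can be assigned to one gene by distance alone.

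Elf1 and Elf2 encode closely related ETS factors that bind many promoters of active genes, and both use more than 1 promoter. Elf1 (ENSMUSG00000036461.16, chromosome 14, 79481194 to 79582494, plus strand) scored highest at its internal start, with 143 and 73 at chr14:79515576-79515725, 23 bp before the start at 79515674. The first start, at 79481194, had promoter scores of 141 and 64, but the peak of 64 lies 311 bp from a start of Wbp4, a splicing factor gene, and 637 bp from that of Elf1. The internal promoter thus ranked above the first one in both lists, and no error can be given for these gaps. Elf2 (ENSMUSG00000037174.18, chromosome 3, 51252720 to 51340663, minus strand) scored 140 and 56, at 548 and 528 bp before its first start. A group of 4 internal Elf2 starts between 51277368 and 51277575 had a highest peak of 127 in list 1 and 31 in list 2. A further start at 51325987 had a peak of 113, at 984 bp, in list 1, and the nearest list 2 peak was 7404 bp away.

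Ets2, Etv6 and Ets1 had promoter peaks of middle or lower rank. Ets2 (ENSMUSG00000022895.16, chromosome 16, 95702075 to 95721051, plus strand), a factor activated by RAS and MAP kinase signalling, had 3 promoter peaks in each list. They scored 117, 118 and 140 in list 1 and 29, 38 and 47 in list 2, and the highest lies 336 bp after the start in both. Etv6 (ENSMUSG00000030199.16, chromosome 6, 134035700 to 134270158, plus strand), a repressor known from leukemia fusions, had 5 promoter peaks in list 1 with a highest score of 142, and 4 in list 2 with a highest score of 49. Ets1 (ENSMUSG00000032035.15, chromosome 9, 32636221 to 32757820, plus strand), an activator best known in T cells, had a single promoter peak at an identical position in the lists, with scores of 131 and 43. It lies 51 bp before the first of 4 coding starts, and the percentiles were 32.1 and 21.5.

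Spic, which macrophages that recycle red cell iron depend on, had the lowest promoter scores of the 7 genes. The gene (ENSMUSG00000004359.16, chromosome 10, 88674772 to 88685015, minus strand) scored 80 in list 1 and 10 in list 2, at percentiles 9.65 and 0.296. Of the 32-bp words within 1000 bp of its start, 89.4% occur once in the reference. Its list 2 hotspot, a called region of enriched cutting, had a deposited −log10 q-value of 2.03 and a width of 144 bp. The hotspot values rank the genes differently from the peak scores in list 2: Ets1, Ets2, Etv6 and Gabpa were at the cap of 100, Elf1 was at 4.62 and Elf2 at 2.48. All 7 were at 100 in list 1, where hotspots at these peaks were 411 to 3916 bp wide.

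Erg, a factor that blood stem cells require and that endothelial cells also use, had no promoter peak although its locus held some of the highest peaks of the set. The gene (ENSMUSG00000040732.20, chromosome 16, 95359169 to 95586593, minus strand) has 6 annotated coding starts. The peak nearest to any of them was 5443 bp away in list 1 and 15802 bp away in list 2, and the nearest hotspots were 5243 and 15636 bp away. Between 82.8% and 100% of the 32-bp words at these starts occur once in the reference. Inside the gene there were 38 peaks in list 1 and 10 in list 2.

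Of the 10 list 2 peaks in Erg, the 5 highest lie within 5430 bp of intron 3, at chr16:95434636-95440065. Their scores were 92, 48, 55, 80 and 86 in list 2, and the overlapping list 1 peaks scored 147, 137, 131, 149 and 149. The other 5 list 2 peaks of the gene scored 10 to 36. In list 1 the order is less clear, since the peak at chr16:95385556-95385705, overlapped by one of these other 5, scored 134 and so lies above the lowest peak of the cluster. The cluster is centred 84.61 to 89.89 kb downstream of the start at 95524603 and 19254 to 24534 bp downstream of the nearest start, at 95459245. An intronic Erg enhancer active in blood stem cells is known, and whether it is one of these peaks was not tested. The 3 highest peaks are shown because they carry the Erg signal and differ in their motif matches.
Erg intron 3, score 92, chr16:95434636-95434785, minus strand: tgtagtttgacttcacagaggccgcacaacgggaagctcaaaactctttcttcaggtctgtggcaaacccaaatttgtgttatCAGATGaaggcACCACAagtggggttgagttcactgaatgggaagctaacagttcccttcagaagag
Erg intron 3, score 80, chr16:95439276-95439425, minus strand: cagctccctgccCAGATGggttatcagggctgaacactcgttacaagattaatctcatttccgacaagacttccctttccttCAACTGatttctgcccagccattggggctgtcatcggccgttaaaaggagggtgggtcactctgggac
Erg intron 3, score 86, chr16:95439916-95440065, minus strand: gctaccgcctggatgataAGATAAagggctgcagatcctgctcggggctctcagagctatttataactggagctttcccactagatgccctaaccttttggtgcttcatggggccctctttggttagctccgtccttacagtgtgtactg
The peak of 92 holds an E-box and a RUNX match next to each other, the peak of 80 holds 2 E-boxes, and the peak of 86 holds 1 GATA match. None of the 3 holds a match to any of the 3 ETS motifs.

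**Figure D2:**
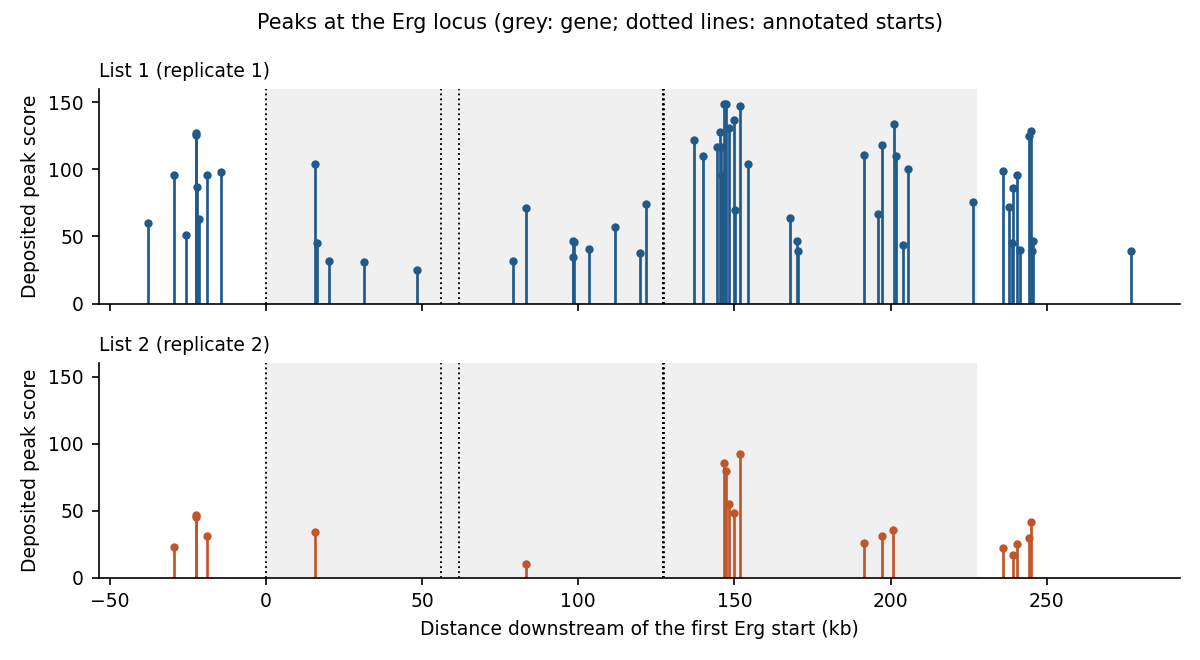
Deposited score (vertical axis, no unit) of each peak at the Erg locus against distance downstream of the first Erg start (kb), in each list; grey marks the gene and dotted lines its starts, 3 of which coincide at this scale. The 5 highest list 2 peaks stand together about 150 kb into the gene, and no peak stands at a dotted line.

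Spib, a factor of mature B cells and plasmacytoid dendritic cells, also had no promoter peak. The gene (ENSMUSG00000008193.13, chromosome 7, 44525993 to 44532071, minus strand) has 1 coding start, and the nearest peak was 2340 bp away in list 1 and 3860 bp away in list 2. All of the 32-bp words around the start, 100%, occur once in the reference. The gene itself held a peak in the last of its 6 exons, with a score of 143 at chr7:44528116-44528265 in list 1 and of 66 at chr7:44528136-44528285 in list 2. A second list 2 peak in that exon, with a score of 45, had no overlapping list 1 peak. The peak of 66 is centred in that exon and holds a RUNX match and 2 E-boxes. Placement rests on the peak centre, so part of its 150 bp may lie outside the exon.
Spib exon 6, chr7:44528136-44528285, minus strand: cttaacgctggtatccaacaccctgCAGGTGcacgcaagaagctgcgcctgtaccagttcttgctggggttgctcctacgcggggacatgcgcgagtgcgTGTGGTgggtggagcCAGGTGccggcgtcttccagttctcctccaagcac

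In list 2 the highest peaks of the Spib locus lay at promoters of its neighbours, above the 66 of the last Spib exon. In list 1 the peak in that exon scored 143, below peaks of 146 at Fam71e1 and 144 at Pold1. It lay above the Nr1h2 peaks, of 140 and 140. No error can be given for these gaps. A peak 10 bp from a start of Fam71e1, near Emc10, scored 98 in list 2, and the promoters of Pold1, the catalytic subunit of DNA polymerase delta, and of Nr1h2, the oxysterol receptor LXR beta, scored 69 and 70. A second Nr1h2 promoter peak, of 67, is shown because the part outside the untranslated region holds 5 ETS matches, overlapping ones counted separately, where the other 3 list 2 peaks with this motif hold 1 each.
Nr1h2 promoter, at the Spib locus, chr7:44553950-44554065, minus strand: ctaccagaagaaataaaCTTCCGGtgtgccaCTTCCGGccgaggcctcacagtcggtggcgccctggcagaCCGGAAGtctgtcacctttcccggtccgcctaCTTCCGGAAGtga

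For several of the genes a site outside all promoters scored higher than the gene's own promoter. Of the 7 genes with a promoter peak, 5 in list 1 and 4 in list 2 had a higher score outside all promoters, within the gene or 50 kb either side. Among all genes with a promoter peak the share was 56.1% and 50.2%. With 7 genes these counts are close to that background. The genes were Ets1, Etv6, Elf2 and Spic in both lists, and Elf1 in list 1 by 144 against 143. Ets2 and Gabpa scored higher at their promoters in both lists. At Spic the highest peak of the locus was the promoter of another gene, Arl1, a small GTPase gene, with 142 and 64. At Elf1 in list 1 it was the promoter of Sugt1, which encodes a cochaperone, with 146.

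**Figure D3:**
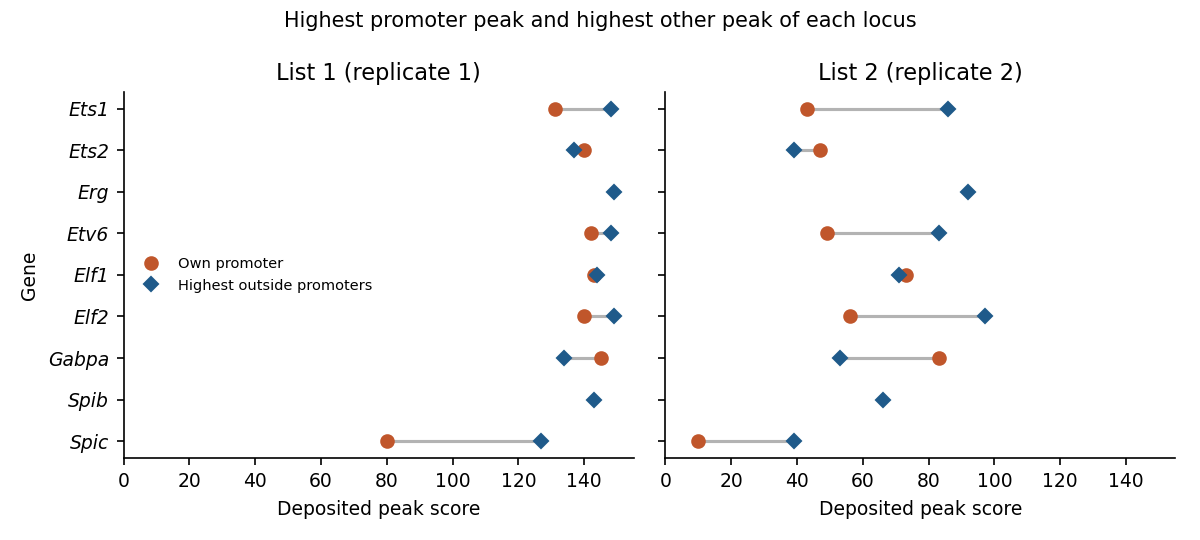
Highest deposited score (horizontal axis, no unit) at the promoter of each gene (circles) and outside all promoters in the gene or within 50 kb (diamonds), in each list. Ets1, Etv6, Elf2 and Spic have the diamond to the right in both panels, Ets2 and Gabpa have it to the left, and Erg and Spib have a diamond only.

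The site beside Ets1 lies at chr9:32603236-32603385 in both lists, with scores of 148 and 86 against 131 and 43 at the promoter. It is intergenic, 92.7 kb before the nearest coding start of Ets1 and 61716 bp from the start of Fli1, the divergent ETS gene next to it. The annotated Ets1 gene begins upstream of its coding starts, at 32636221, which puts the site within 50 kb of the gene. The site cannot be assigned to one of the pair. The Etv6 site lies in intron 3, 151 kb from the start, with scores of 148 and 83. The Elf2 site lies in intron 4, at 149 and 97, and is the highest peak of the set in list 2 outside other genes' promoters. It is 1157 bp downstream of the internal Elf2 starts, just beyond the 1000 bp used for a promoter, and counts as a promoter peak when the window is widened to 2500 bp. These 3 sites are shown because they outscore the promoters of their genes.
Ets1 upstream, chr9:32603236-32603385, plus strand: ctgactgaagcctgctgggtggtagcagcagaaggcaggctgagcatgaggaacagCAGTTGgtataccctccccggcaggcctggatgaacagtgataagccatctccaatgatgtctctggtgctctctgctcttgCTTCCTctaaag
Etv6 intron 3, chr6:134186396-134186545, plus strand: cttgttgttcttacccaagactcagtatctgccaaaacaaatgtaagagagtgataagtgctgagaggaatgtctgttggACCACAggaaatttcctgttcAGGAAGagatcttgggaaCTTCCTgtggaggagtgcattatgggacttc
Elf2 intron 4, chr3:51276136-51276285, minus strand: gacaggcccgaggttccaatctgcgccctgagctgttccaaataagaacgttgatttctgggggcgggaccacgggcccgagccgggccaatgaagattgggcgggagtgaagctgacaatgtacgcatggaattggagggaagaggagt
The Etv6 site holds 2 ETS cores and 1 RUNX match, the Ets1 site 1 ETS core and 1 E-box, and the Elf2 site none of the 6 motifs, although it contains 9 CG dinucleotides and the GC box and CCAAT box letters given below.

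Counted over the gene and 50 kb either side, the 9 loci held 433 peaks in list 1 and 129 in list 2, and no pair of loci shares sequence. The median locus held 41 and 12 peaks against 28 and 9 for all protein-coding genes. These genes are long, with a median length of 87.9 kb against 17.4 kb, and per 100 kb the medians were 23.0 and 6.98 against 20.6 and 6.78. Elf2 had the densest locus, with 106 and 25 peaks, or 56.4 and 13.3 per 100 kb, at percentiles 97.0 and 85.9 of density over all genes. In list 1 44 of its peaks lie upstream of the gene and 33 downstream, and the downstream peaks run into Noct, a gene under circadian control whose promoter scored 60 in list 2. Ets1 had the sparsest, with 9.03 and 4.06 peaks per 100 kb, at percentiles 25.7 and 33.4.

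Etv6 had more intron peaks than any other of the 9 genes, 54 of 77 peaks in list 1 and 18 of 27 in list 2. It is also the longest of the 9, at 234.5 kb, and its peaks per 100 kb stood at percentiles 56.2 and 59.2 over all genes. The 18 list 2 intron peaks comprise 4 in intron 1, 6 in intron 2, 7 in intron 3 and 1 in intron 5. Besides the site in intron 3, the highest are at 134065176 in intron 1, with scores of 145 and 75, and at 134189916 in intron 3, with 143 and 73. A peak over exon 8, one of the exons that encode the ETS domain, scored 101 and 23 and holds a PU.1 match. Elf1 had 28 peaks in its intron 1 in list 1 and 4 in list 2, outside promoters, and the highest list 2 peak of these, at 79530256, scored 71.

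**Figure D4:**
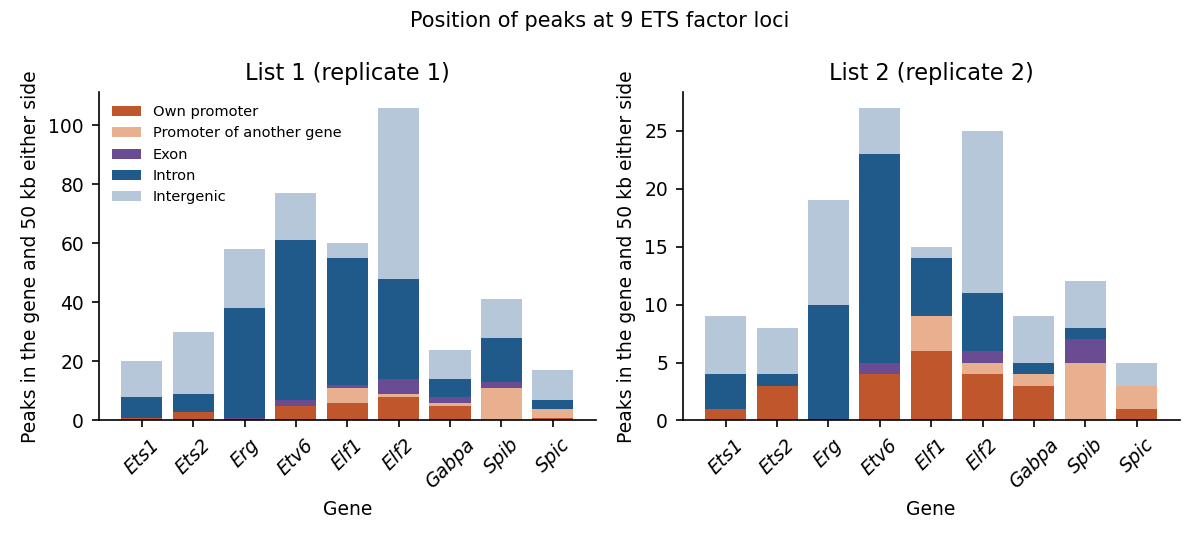
Number of peaks (vertical axis, separate scales) in each of the 9 genes and the 50 kb either side, stacked by position, in each list. Elf2 has the tallest bar in list 1 with 106 peaks and Etv6 in list 2 with 27, and most of the Etv6 bar is intron.

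Over all 9 loci, promoters of any gene held 11.5% of the list 1 peaks (Wilson 95% interval 8.87 to 14.9%) and 26.4% of the list 2 peaks (19.5 to 34.6%), against 12.3% and 21.2% of all peaks. Introns held 47.3% (42.7 to 52.1%) and 34.1% (26.5 to 42.6%), against 41.3% and 36.8%. Intergenic sequence held 38.1% (33.7 to 42.8%) and 36.4% (28.6 to 45%), against 43.4% and 39.4%. In list 1 the intron share lies above, and the intergenic share below, that of all peaks by more than counting error. Etv6 holds 54 of the 205 list 1 intron peaks, and without its locus the intron share was 42.4% (37.4 to 47.6%) and the intergenic share 41.9% (36.8 to 47.0%), both intervals including the share of all peaks. The intron interval also includes it without Elf1 (43.4%) or without Erg (44.8%), and the intergenic interval without Elf1 (42.9%), Erg (38.7%) or Spib (38.8%). In list 2 the intron share without Etv6 was 25.5% (18.0 to 34.7%), below the 36.8% of all peaks. The loci are windows around genes that are mostly long, whereas all peaks include those far from genes, so the position shares are a description of these loci. The intervals cover counting error over peaks only.

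The list 2 peaks of these loci were nearly all present in list 1. Of 129, 122 (94.6%) were overlapped by a list 1 peak, the same percentage as for all list 2 peaks, 94.6%. In the other direction 120 of 433 (27.7%, interval 23.7 to 32.1%) were overlapped, against 30.2% of all list 1 peaks. Within list 1 the overlapped peaks had a median score of 128 and the others 72. Of 169 list 1 peaks scoring 100 or more, 61.5% (54.0 to 68.5%) were overlapped, below the 75.6% of all such peaks by more than counting error. With each locus left out in turn the interval stayed below that value, and without Elf2 the share was 67.2% (58.5 to 74.9%). The score band was not set beforehand, and the loci were left out after seeing the data. These intervals cover counting error over peaks only, and peaks of 1 locus are not independent. Over list 1 peaks of any score, the overlapped share ranged from 20.8% at Elf2 to 45% at Ets1. The Elf2 locus held the 4 highest list 1 peaks without a list 2 overlap, with scores of 132, 131, 131 and 131. The nearest list 2 peaks lay 260, 440, 7840 and 2500 bp away. In each of these 4 peaks 100% of the 32-bp words occur once in the reference. Of all 106 list 1 peaks at Elf2, 10 had under 60% of their words occurring once, as had 3 of 24 at Gabpa and 2 of 30 at Ets2.

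The 7 list 2 peaks without overlap were 2 at Elf1, 2 at Elf2, 2 at Spib and 1 at Etv6. All of them lay 160 to 540 bp from a list 1 peak. Their scores were 19, 40, 21, 58, 40, 45 and 23.

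Motif matches were counted in the 150 bp around each peak centre, on both strands, for the 6 motifs above and for 5 others. The GC box bound by Sp factors was searched as GGGCGG, and the motif of Kruppel-like factors, or KLF, as CACCC. The box bound by the trimeric factor NF-Y was searched as CCAAT. The cAMP response element, or CRE, was searched as TGACGTCA, and the site of Fos and Jun dimers, or AP-1, as TGANTCA. For all 11 motifs in both lists, the share among all peaks lay inside the interval of the share at the 9 loci. The full ETS motif was found in 8 of 433 list 1 peaks (1.85%, interval 0.939 to 3.6%) and in 4 of 129 list 2 peaks (3.1%, 1.21 to 7.7%), against 1.57% and 3.33% of all peaks. Of the 4, 1 is the Gabpa promoter, 2 are promoters of the neighbours Sugt1 and Nr1h2, and 1 is the intergenic peak at chr14:79441576-79441725 before Elf1, with a score of 34. The PU.1 motif was found in 9 list 2 peaks (6.98%, 3.71 to 12.7%), against 9.93% of all peaks. They lie at Ets2, Etv6, Elf2, Gabpa and Spib, and the highest outside promoters, of 53, is the site at chr16:84802276-84802425 in an intron of Jam2, before Gabpa.

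**Figure D5:**
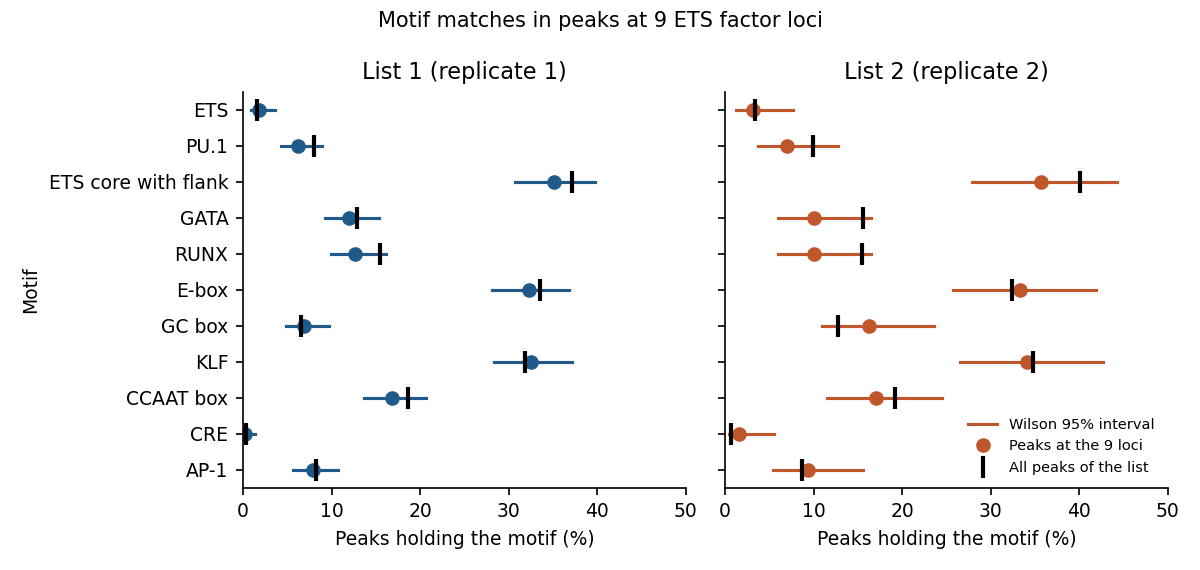
Percentage of peaks holding each motif (horizontal axis) at the 9 loci (points, with Wilson 95% intervals as lines) and among all peaks of the list (black ticks), in each list. Every black tick lies within the line of its motif.

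Within the genes' own promoter peaks GATA and RUNX matches were not found: 0 of 29 in list 1 and 0 of 22 in list 2. The intervals reach 11.7% and 14.9%, and all promoter peaks hold them in 6.32% and 6.06% (GATA) and 8.88% and 7.88% (RUNX). These shares lie inside the intervals, so the counts are too small to tell whether these promoters differ from others. E-boxes were in 3 of 29 list 1 promoter peaks (10.3%, 3.58 to 26.4%), below the 27.7% of all promoter peaks. In list 2 they were in 4 of 22 (18.2%, 7.31 to 38.5%), and the interval includes the 24.7% of all promoter peaks. Of the 11 motifs compared in promoter peaks, 10 in list 1 and 11 in list 2 had the share of all promoter peaks inside the interval. Peaks of 1 gene are not independent, and 8 of the 29 are at Elf2. The full ETS motif was in 1 of 29 list 1 promoter peaks (3.45%, 0.611 to 17.2%) and in 1 of 22 in list 2 (4.55%, 0.807 to 21.8%). All promoter peaks held it in 6.5% and 10.2%, and each interval includes that share. RefSeq promoters of 300 bases (GRCm38) were listed for 8 of the 9 genes, as 12 sequences. Among these the full ETS motif was in the Gabpa promoter alone, against 8.86% of 32851 promoters of the same length.

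Among the other ETS family genes, 13 of 17 had a promoter peak in list 1 and 12 in list 2. The shares of all protein-coding genes were 58.3% and 49.4%. Fev, Etv1, Etv2 and Spdef had none in either, and Elf5 had one in list 1 alone, with a score of 105. Elf3, with 117 and 49, and Ehf, with 108 and 16, had one in both lists. The highest list 2 scores were those of Spi1, which encodes PU.1, with 123, Elk1 with 106, Etv5 with 98 and Etv4 with 91. All of these exceed the 83 of Gabpa, the highest of the 9 genes. Fli1, the ETS gene next to Ets1, scored 130 and 40, close in rank to Ets1, with percentiles of 30.6 and 18.2.

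Of 14 genes for cofactors and partners of ETS factors, 12 had a promoter peak in each list, against 58.3% and 49.4% of all protein-coding genes. Irf8 and Pax5 had none. Irf4, another of the 14, scored 105 and 23, at percentiles 14.8 and 4.51. Gabpb2 and Gabpb1 encode the activation subunits that Gabpa needs. Gabpb2 scored 150 and 112, the highest of the list in both, and Gabpb1 scored 141 and 59. Sin3a, a corepressor recruited by Etv6, scored 149 and 103, and Srf, the partner of the Elk group, 147 and 92. Runx1, which cooperates with Ets1 on DNA, scored 142 and 73.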

How the data were processed

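The authors called peaks and hotspots, per the deposited notes, on an alignment merged from both replicate 1 libraries (list 1) and on the replicate 2 library alone (list 2). The build was mm10, per the labels, and all peaks lay inside the GRCm38 chromosomes. The aligner, caller and read numbers are not given in the sources used here. Each deposited peak carries a score, and each deposited hotspot a −log10 q-value, with a cap of 100. Exact repeats were dropped (67 and 7 peaks).

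Peak centres were placed on the GENCODE M21 basic annotation with Python 3.11.15, numpy 2.4.6, pandas 2.3.3 and scipy 1.17.1; exons and introns are those of protein-coding genes. Peaks overlap when at least 1 bp is shared. Uniqueness is the share of 32-bp words found once in the reference. Counting code was tested on simulated data. For each gene the highest promoter peak, the highest other peak in the gene and the highest within 50 kb outside it were named, and up to 4 family or partner genes with the highest scores, plus those without a peak. Fli1, Elf3, Ehf, Irf4, Gabpb1 and Runx1, and single peaks named beyond this rule, were chosen after their values were seen. Members and lists were chosen with earlier results of these data known. Etv3l was not found in the annotation.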

Additional observations from a re-analysis of the deposited data

How the results depend on the processing

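Of 141 values recomputed under other settings, 122 stayed within counting error or 1.5 times of the reported value. That number is partly set by the rule. A count of 7 of 9 genes cannot rise out of this range, and values with 1 locus left out share most peaks with the reported value. Erg lacked a promoter peak under every window, start set and list tried, hotspots included. Spib had one, in list 1, within 2500 bp, giving 8 of 9 genes, where 66.2% of all genes had one. Spic lost its peak at equal list length and in the higher-scoring 50% of list 2, giving 6 of 9, against 50.7% and 44.5% of all genes. In lists of equal length list 1 keeps as many highest-scoring peaks as list 2 holds. The counts of genes with a higher peak outside promoters were 5 of 8 and 3 of 7 within 2500 bp, an alternative chosen after seeing the data. Elf2 left both counts, and Spib entered the first.

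By hotspot value no gene exceeded the all-gene median, which is the cap, so the counts above it became 0 and 0. Peaks per 100 kb at the median locus were 9.47 and 3.88 in the higher-scoring 50%, against 10.8 and 3.2 for all genes, which turns the list 1 order, and 7.26 at equal list length in list 1. The list 1 promoter share became 19.2% and the intron share 41.6% within 2500 bp. At equal list length the promoter share was 23.7%, the exon share 1.69% and the intergenic share 31.1%. With 1 locus left out, also chosen after seeing the data, the list 1 intron share was 42.4% without Etv6 and 52.3% without Elf2, the list 1 intergenic share 42.9% without Elf1 and 32.7% without Elf2, and the list 2 intron share 25.5% without Etv6. With centres within 500 bp counted as shared, 35.8% of list 1 and 99.2% of list 2 peaks were shared, against 37% and 99% of all peaks. At equal list length 59.3% and 82.2% were shared, against 74.3% and 75%. The cause of these shifts was not tested, beyond the smaller number of peaks that the shorter lists hold by construction.

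No paired analysis was possible because each biological replicate has 1 list and the study has 1 condition. Each list is given separately, so each result is also shown without the other replicate. Depth is unknown, and absence of a peak does not show that a site is closed.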
